A study of Zea mays with 24 samples.

Results

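The genes described here are 10 members of the heat stress transcription factor (HSF) family of maize, chosen by a list of gene IDs of an older maize annotation and found on the array through the transcript names of its probes. They are 10 of the 107027 gene IDs on the array, and all 10 had probes, 26 in number on 33 spots. A probe was kept where all arrays of some group showed it well above background, and since all 26 met this condition, each of the 10 genes was among the 48264 genes tested. The RefSeq gene table gives 4 of the 10 an HSF name, namely HSF6 for GRMZM2G059851, Hsf03 for GRMZM2G164909, Hsf05 for GRMZM2G132971 and Hsf17 for GRMZM2G125969. It holds another 4 without such a name and does not list GRMZM2G165972 and GRMZM2G002131, so that for these 6 genes the family rests on the list of members alone.

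HSFs are DNA-binding proteins that assemble into trimers and bind heat shock elements, short repeated motifs in the promoters of heat shock protein (HSP) genes. Some members of the plant family activate transcription, whereas others lack the activation domain and repress or modulate it, and several HSF genes are themselves raised by heat. In unstressed cells HSP70 and HSP90 chaperones keep HSF activity low. Small HSF-binding proteins also limit HSF activity.

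The seedlings came from 3 maize cytolines, that is, lines that share a nucleus but differ in their cytoplasm and hence in their plastids and mitochondria. TC243 is the source of the nucleus, and cytTC221 and cytTC248 carry the TC243 nucleus, introduced by repeated backcrossing, in the cytoplasm of the inbred lines TC221 and T248. Control seedlings were sampled at 21 days, after days of 16 h at 26 °C and nights of 8 h at 20 °C, and stress seedlings were grown in the same way for 20 days and then kept for 24 h at 40 °C. Each of the 6 groups had 4 one-colour arrays, hybridised with RNA from leaves and stems at the 3-leaf stage, so that the data hold a single time of heat and a single line for each cytoplasm. The methods name 3 seedlings per line, and how the 4 arrays of a group relate to them was not given in the sources used here. The p-values therefore measure the spread between arrays, which may be technical.

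An array had 36.9% to 43.1% of its spots well above background. The deposited values are log2 signals without background subtraction, normalized separately within the 8 arrays of each cytoline, and the lowest signal that was well above background lay between 6.18 and 6.60 on the arrays. A log2 value near 6.4 thus stands for a spot that could not be told from background, and a fold regulation (FR) of a gene that starts there understates the change. All 5 leaf marker genes, among them those of the C4 photosynthesis enzymes, had kept probes, and none of the 6 zein genes, which code for storage proteins of the kernel, had one. In TC243 and cytTC221 control arrays lay at odd and stress arrays at even positions of the slides. In cytTC248 it was the reverse. Within a cytoline the position and the treatment therefore cannot be told apart. The same holds for position and cytoline where the response of cytTC248 is set against that of another line. The part of position in the responses was not tested. As leaves and stems were measured whole, fewer cells of a type and less RNA per cell cannot be told apart either.

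Heat raised most of the HSF genes and lowered few. With limma at an adjusted p below 0.01 over all genes tested, 6 of the 10 were higher after heat in TC243, 8 in cytTC221 and 8 in cytTC248, where 41.9%, 36.2% and 41.7% of all genes were called higher. Lower after heat were 2, 1 and 2 of the 10, against 38.3%, 38.7% and 38.1% of all genes. In either direction 8, 9 and 10 were called, against 80.3%, 74.9% and 79.8%. The probes of GRMZM2G059851 and GRMZM2G164909 were kept through stress groups alone, which favoured a call higher for these genes. Of all calls in cytTC248, 52.3% were higher, and with background correction and scaling to the 75th percentile 67.7% were, with 8 members higher and 1 lower. The same 6 genes were higher in all 3 cytolines (29.8% of all genes were), 1 gene was lower in all 3 (31.4% of all genes were), and the other 3 were called in 2 cytolines each. The median log2 response of the 10 genes was 1.12 in TC243, 0.83 in cytTC221 and 0.92 in cytTC248, and that of all genes was 0.05, -0.02 and 0.07. The arrays of control and stress did not overlap for 8, 9 and 10 of the 10 genes, where 80.8%, 75.2% and 81.6% of all genes did not overlap. The share of HSF genes that heat moved was thus near that of all genes, and what follows concerns which members moved, by how much and in which probes.

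**Figure D1:**
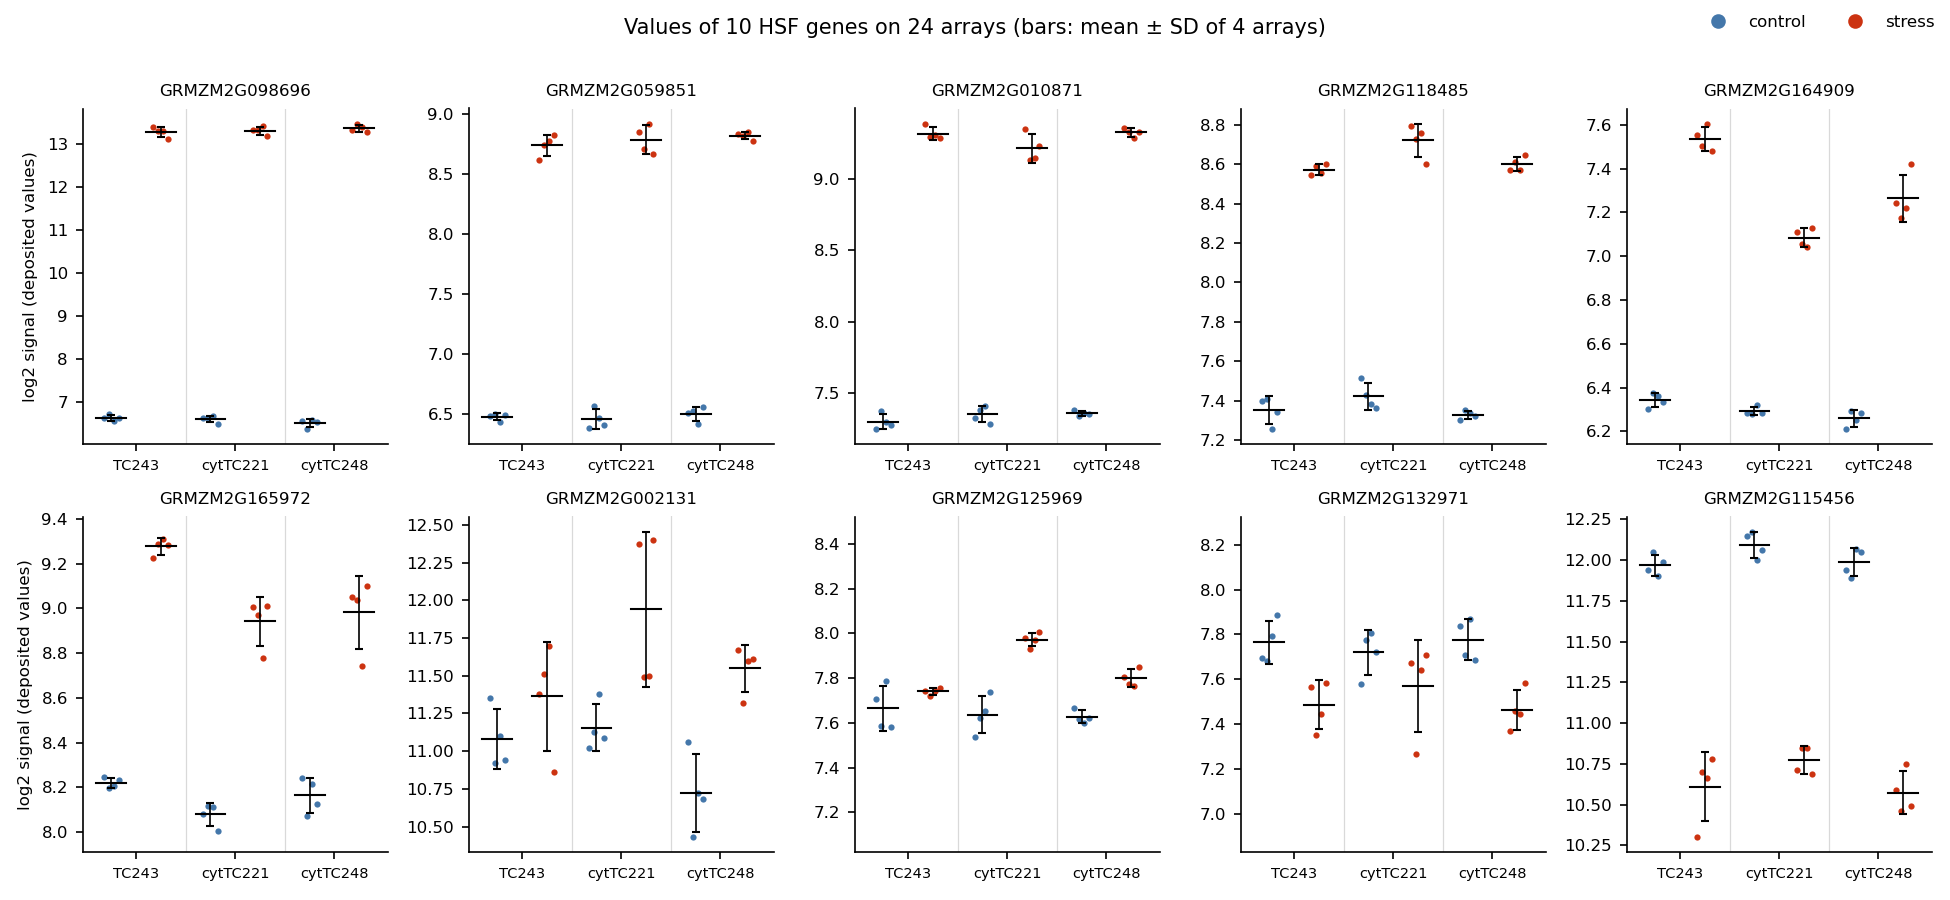
Log2 signal (deposited values, y axis) of the 10 HSF genes on the 24 arrays, with 1 panel for each gene on its own axis and the genes in the order of their mean response. Blue points are control and red points stress arrays of the cytoline named on the x axis, and the bars give the mean ± SD of 4 arrays. GRMZM2G098696 climbed from about the level of background to over 13 in every cytoline, whereas GRMZM2G115456 dropped by more than 1 on the log2 scale in each.

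The strongest member was GRMZM2G098696. In TC243 its log2 value was 6.61, 6.70, 6.56 and 6.61 on the control arrays and 13.40, 13.32, 13.30 and 13.14 on the stress arrays. In cytTC221 the control arrays gave 6.62, 6.63, 6.66 and 6.49 and the stress arrays 13.34, 13.32, 13.42 and 13.20. In cytTC248 the values were 6.54, 6.36, 6.58 and 6.54 in control and 13.34, 13.48, 13.40 and 13.28 under stress. Control and stress were thus far apart in each cytoline, and the 12 stress arrays of the 3 cytolines covered the same narrow range. The log2 response was 6.67 in TC243, 6.72 in cytTC221 and 6.87 in cytTC248 (SE 0.07 each, limma adjusted p = 8.03e-27, 7.97e-27 and 6.28e-27). By the size of its rise this gene ranked 22nd, 21st and 17th of the 48264 genes.

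The gene has a probe for each of 2 transcripts, and both rose. The T01 probe gave no control array well above background, so that its rise can only be bounded, at least 71.5-fold in TC243, 81.0-fold in cytTC221 and 72.4-fold in cytTC248. For such a bound each control signal counts as no less than the detection level of its array, that is, the dimmest signal still called well above background. The probe of T02 was well above background on all 4 control arrays of TC243, where the mean went from 6.87 ± 0.11 to 13.98 ± 0.19 (SD, n = 4), a rise of 138-fold. It was so on 3 control arrays of cytTC221 and on 1 of cytTC248, where the means went from 6.86 ± 0.11 to 13.83 ± 0.19 and from 6.60 ± 0.15 to 14.09 ± 0.16 (SD, n = 4). As most control arrays of cytTC248 could not be told from background, no fold is given there.

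Next in size was GRMZM2G059851 (HSF6). Its control values were 6.48, 6.50, 6.43 and 6.49 in TC243, 6.38, 6.56, 6.46 and 6.41 in cytTC221, and 6.50, 6.52, 6.41 and 6.55 in cytTC248. Under stress they were 8.62, 8.74, 8.78 and 8.83 in TC243, 8.86, 8.71, 8.92 and 8.67 in cytTC221, and 8.84, 8.82, 8.85 and 8.78 in cytTC248. Every stress array was more than 2 log2 units above every control array. The response was 2.27, 2.34 and 2.33 (SE 0.06 each, adjusted p = 5.05e-20, 3.52e-20 and 3.55e-20). The lowest and highest cytoline differed by 0.07. This mean joins opposite probe differences between cytTC221 and TC243, -0.21 at T01 and 0.34 at T02. Neither passed the threshold (limma over all probes, adjusted p = 0.0122 and 0.0248). Both of its probes stayed at background in all controls, and they differed in size. The rise was at least 12.2-fold, 10.2-fold and 12.2-fold at transcript T01, and at least 1.87-fold, 2.29-fold and 1.98-fold at T02.

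GRMZM2G010871 followed and is the member with the most probes. Control arrays gave 7.25, 7.38, 7.30 and 7.28 in TC243, 7.32, 7.38, 7.41 and 7.29 in cytTC221, and 7.38, 7.34, 7.36 and 7.36 in cytTC248. Stress arrays gave 9.38, 9.29, 9.30 and 9.28, then 9.35, 9.13, 9.15 and 9.23, and then 9.35, 9.33, 9.28 and 9.33, in the same order of cytolines. The groups lay about 2 log2 units apart and the arrays within a group at most 0.22. The response was 2.01, 1.86 and 1.96 (SE 0.05 each, adjusted p = 1.19e-20, 5.79e-20 and 2.06e-20), an FR of 4.04, 3.63 and 3.90. All 6 of its probes rose in all 3 cytolines. The FR averages in probes with controls at background, T05 in all cytolines and T01 in TC243, so that it understates the change. T06, which could be measured on all 24 arrays, rose by 2.86, 3.00 and 3.09, whereas T05 lay at background in all controls and rose by at least 1.62-fold, 1.38-fold and 1.48-fold.

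GRMZM2G118485 rose less. Its values were 7.40, 7.41, 7.26 and 7.34 in TC243 control and 8.55, 8.59, 8.55 and 8.60 under stress. For cytTC221 they were 7.51, 7.43, 7.38 and 7.36 against 8.80, 8.73, 8.76 and 8.60, and for cytTC248 7.30, 7.35, 7.34 and 7.32 against 8.57, 8.61, 8.57 and 8.64. No control array reached the lowest stress array. The response was 1.22, 1.30 and 1.27 (SE 0.05 each, adjusted p = 1.08e-16, 4.01e-17 and 5.33e-17), and each of its 3 probes rose in each cytoline. The T01 probe lay at background in all controls and rose by at least 1.75-fold, 1.98-fold and 1.87-fold, so that the mean understates the change. With this gene, 4 of the 10 HSF genes had a log2 response over 1 in all 3 cytolines, as had 12.9% of all genes.

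GRMZM2G164909 (Hsf03) has a single probe on 2 spots, which lay at background on the 12 control arrays. The control values were 6.30, 6.38, 6.36 and 6.34 in TC243, 6.28, 6.28, 6.32 and 6.28 in cytTC221, and 6.21, 6.30, 6.25 and 6.28 in cytTC248. The stress values were 7.56, 7.50, 7.60 and 7.48 in TC243, 7.11, 7.06, 7.04 and 7.13 in cytTC221, and 7.24, 7.18, 7.22 and 7.42 in cytTC248. Control and stress were well separated, and the 4 stress arrays of TC243 lay above all stress arrays of the other cytolines. The log2 response was 1.19 in TC243, 0.79 in cytTC221 and 1.01 in cytTC248 (SE 0.05 each, adjusted p = 1.88e-16, 4.5e-13 and 4.91e-15). The rise was at least 2.16-fold, 1.53-fold and 1.82-fold. The cytTC221 value uses the mean of all 4 stress arrays, of which 3 were well above background.

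GRMZM2G165972 gave 8.25, 8.20, 8.20 and 8.24 in TC243 control and 9.22, 9.29, 9.31 and 9.28 under stress. In cytTC221 it gave 8.08, 8.12, 8.11 and 8.01 against 9.01, 8.97, 8.78 and 9.01, and in cytTC248 8.24, 8.07, 8.22 and 8.13 against 9.05, 9.04, 8.74 and 9.10. Replicate 3 was the lowest stress array in both of the latter cytolines, and no groups overlapped. The response was 1.06, 0.86 and 0.82 (SE 0.07 each, adjusted p = 1.03e-12, 4.7e-11 and 1.09e-10). Its 4 probes disagreed in size but not in direction. T04, at background in all controls, rose by at least 3.98-fold, 3.02-fold and 3.30-fold, while T03, which was well above background on 8 of the 24 arrays, did not pass the threshold in cytTC221 (adjusted p = 0.0155). The low stress arrays came from single probes. T01 read 9.03 on replicate 3 of cytTC221 against 10.05 to 10.42 on the others, and T02 read 9.99 on replicate 3 of cytTC248 against 10.87 to 10.93.

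**Figure D2:**
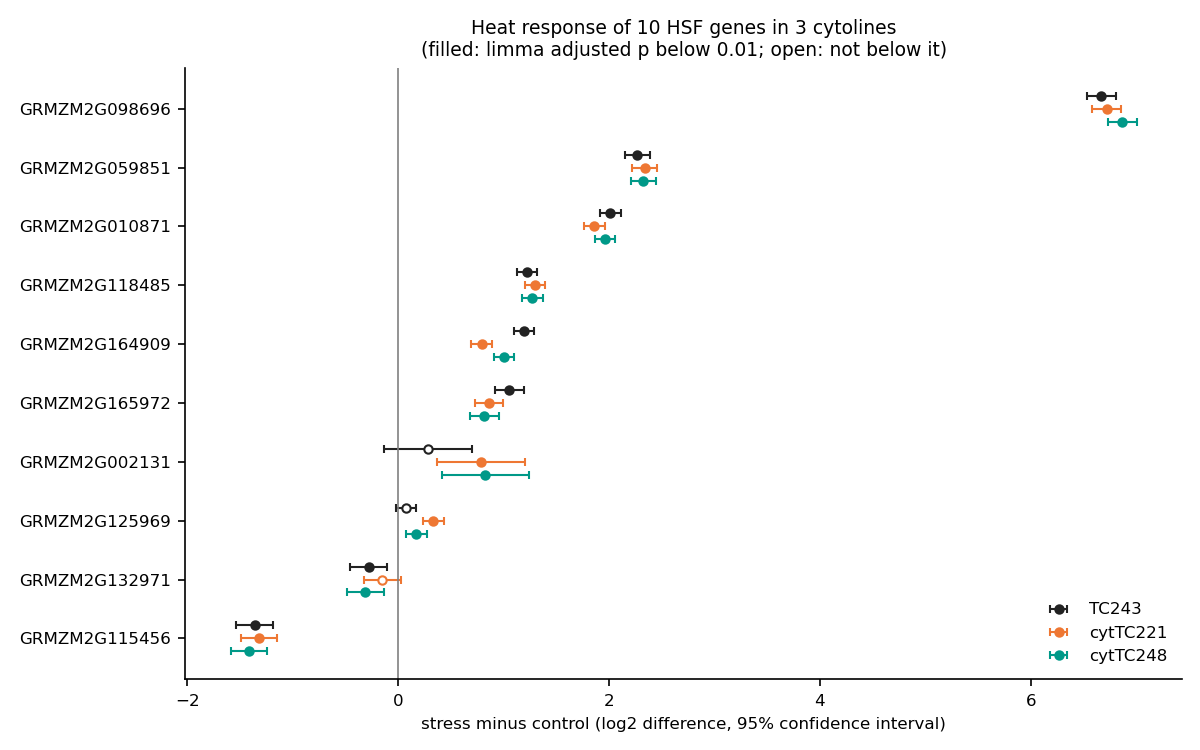
Heat response (stress minus control, log2 difference, x axis) of the 10 HSF genes in TC243 (black), cytTC221 (orange) and cytTC248 (teal), with 95% confidence intervals from the limma fit. Filled points passed an adjusted p below 0.01 and open points did not. GRMZM2G098696 stands alone near 7, the intervals of GRMZM2G164909 in TC243 and cytTC221 are apart, and GRMZM2G115456 is the only gene that lies below -1.

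GRMZM2G002131, with 1 probe on 1 spot, measurable on all 24 arrays, had the widest spread between replicates among the members. In TC243 control arrays gave 11.35, 10.92, 11.10 and 10.94 and stress arrays 11.38, 11.51, 11.70 and 10.86, and these overlap. In cytTC221 the values were 11.02, 11.13, 11.38 and 11.09 against 12.37, 11.49, 11.50 and 12.40, and in cytTC248 11.06, 10.43, 10.72 and 10.68 against 11.67, 11.32, 11.60 and 11.61. Control and stress did not overlap in these 2 cytolines, and the cytTC221 stress arrays fell into a high and a low pair. The gene was higher after heat in cytTC221 by 0.79 (SE 0.20, adjusted p = 0.0011) and in cytTC248 by 0.83 (SE 0.20, adjusted p = 0.000627). In TC243 the difference was 0.29 (95% confidence interval -0.13 to 0.70, adjusted p = 0.186). Its responses were not shown to differ between cytolines (limma F-test, adjusted p = 0.176). The 2 high stress arrays of cytTC221, replicates 1 and 4, lay at position 2 of their slides and had 41.2% and 43.1% of their spots well above background, whereas replicates 2 and 3 lay at position 4 with 37.1% and 36.9%. The part of position in this spread was not tested. Between the arrays of cytTC221 that shared a slide, stress exceeded control by 0.36 and 0.12.

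GRMZM2G125969 (Hsf17) is a case in which the mean over probes hides opposite movements. As a mean over its 3 probes it was higher after heat in cytTC221 by 0.33 (SE 0.05, adjusted p = 1.15e-06) and in cytTC248 by 0.17 (SE 0.05, adjusted p = 0.00206), with 0.08 in TC243 (adjusted p = 0.143). The cytTC248 call was lost with background correction and quantile normalization (adjusted p = 0.0314) and when each array was centred on its median gene (0.12). With the processed signal neither call held (0.34 with adjusted p = 0.046 in cytTC221, -0.18 with 0.277 in cytTC248). The probe of transcript T01, well above background on all 24 arrays, gave 8.98, 8.91, 9.03 and 8.91 in TC243 control and 10.32, 10.24, 10.24 and 10.31 under stress. It gave 9.01, 8.78, 8.77 and 8.99 against 10.49, 10.44, 10.57 and 10.56 in cytTC221, and 9.07, 9.07, 8.99 and 9.07 against 10.46, 10.37, 10.35 and 10.47 in cytTC248. The T01 signal therefore rose without overlap in each cytoline, by 1.32, 1.63 and 1.36 (SE 0.06 each, limma over all probes, adjusted p = 8.19e-16, 1.87e-17 and 4.74e-16).

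The probe of T03 did the reverse. Its control arrays lay between 7.40 and 7.82 in TC243, 7.20 and 7.71 in cytTC221, and 7.31 and 7.50 in cytTC248, above all stress arrays, of which the highest was 6.48. Its control means were 7.60 ± 0.23 in TC243, 7.57 ± 0.25 in cytTC221 and 7.39 ± 0.08 in cytTC248, and its stress means were 6.40 ± 0.03, 6.42 ± 0.06 and 6.38 ± 0.07 (SD, n = 4). No stress array of any cytoline was well above background for T03, so that the signal fell by at least 2.15-fold, 2.10-fold and 1.89-fold (adjusted p = 1.83e-10, 4.3e-10 and 4.11e-09), with 3 of the 4 control arrays of cytTC221 well above background. The third probe, T02, was well above background in a single group, the cytTC221 stress arrays, with values from 6.90 to 7.06 against 6.41 to 6.52 in the cytTC221 control. It stayed between 6.48 and 6.63 on the stress arrays of TC243 and cytTC248. Whether the 3 probes report separate transcripts was not tested.

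**Figure D3:**
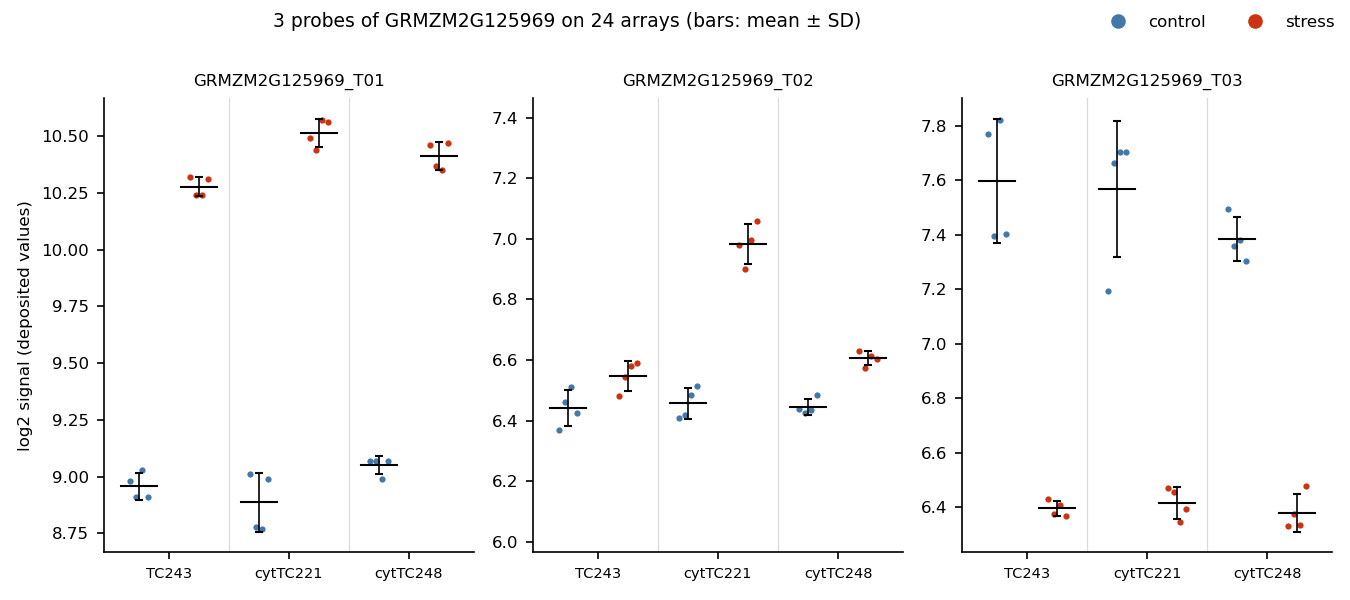
Log2 signal (deposited values, y axis) of the 3 probes of GRMZM2G125969 on the 24 arrays, with control arrays in blue, stress arrays in red and bars for the mean ± SD of 4 arrays. The T01 probe rose by 1.32 to 1.63 after heat, the T03 probe dropped to background level in every cytoline, and the T02 probe was well above background only on the cytTC221 stress arrays.

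Of the members that were lower after heat, GRMZM2G115456 was the clear case. Control arrays gave 11.94, 12.05, 11.90 and 11.99 in TC243, 12.15, 12.17, 12.00 and 12.06 in cytTC221, and 11.94, 11.89, 12.07 and 12.05 in cytTC248. Under stress the values were 10.30, 10.70, 10.66 and 10.78 in TC243, 10.71, 10.85, 10.85 and 10.69 in cytTC221, and 10.59, 10.46, 10.75 and 10.49 in cytTC248. All 12 control arrays were above all 12 stress arrays by more than 1 log2 unit. The response was -1.36, -1.32 and -1.42 (SE 0.08 each, adjusted p = 8.21e-13, 1.64e-12 and 4.19e-13), that is, 2.57, 2.50 and 2.67 times less signal after heat. Its single probe was well above background on all 24 arrays, so that this fall is a measured one on both sides.

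GRMZM2G132971 (Hsf05) moved little. Its values were 7.70, 7.68, 7.79 and 7.89 in TC243 control and 7.56, 7.35, 7.45 and 7.58 under stress, and in cytTC248 they were 7.84, 7.71, 7.87 and 7.69 against 7.37, 7.46, 7.44 and 7.58. In cytTC221 the stress arrays, with 7.67, 7.27, 7.64 and 7.71, overlapped the control arrays, with 7.58, 7.77, 7.81 and 7.72. The gene was lower after heat in TC243 by 0.28 (SE 0.08, adjusted p = 0.00449) and in cytTC248 by 0.31 (SE 0.08, adjusted p = 0.00181), with -0.15 in cytTC221, which did not pass the threshold (adjusted p = 0.112). The TC243 call was lost without control replicate 3 (adjusted p = 0.012) or 4 (0.0202), or without stress replicate 2 (0.0215) or 3 (0.0127). With background correction and scaling to the 75th percentile the differences were -0.09 in TC243 and 0.03 in cytTC248, neither of which was called, while the median of all genes moved to 0.27 and 0.48.

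An older gene ID that RefSeq joins with GRMZM2G132971 into 1 gene behaved otherwise. The RefSeq entry Hsf05 holds both GRMZM2G132971 and GRMZM2G133023, and the latter has 5 kept probes of its own. All 5 were called higher in all 3 cytolines, T04 from controls at background. The T02 probe, above background on all arrays, rose by 4.56, 3.92 and 4.19 (limma over all probes, adjusted p = 3.26e-24, 4.59e-23 and 1.48e-23). The probe of its transcript T01 had means of 12.57 ± 0.14, 12.59 ± 0.01 and 12.50 ± 0.10 in control and 16.12 ± 0.03, 15.73 ± 0.08 and 15.98 ± 0.09 under stress (SD, n = 4), in the order TC243, cytTC221 and cytTC248. None of the 3 probes of GRMZM2G132971 was called higher in any cytoline. Averaging all 8 probes as 1 gene, an alternative added after the values were seen, turned the response of Hsf05 to 2.01, 1.74 and 1.84. The direction reported for Hsf05 thus depends on which of the older IDs stands for it. GRMZM2G118529, which RefSeq joins with GRMZM2G118485, had no kept probe.

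Counted by probe, 19, 20 and 21 of the 26 probes of the HSF genes were called higher in TC243, cytTC221 and cytTC248, against 39.9%, 35.6% and 39.5% of all kept probes. Called lower were 4, 2 and 4 of the 26, where 40.6%, 40.3% and 40.6% of all kept probes were. Some of the 26 probes, among them both of GRMZM2G059851 and the single probe of GRMZM2G164909, were kept through stress groups alone. For such probes the filter favoured a call higher in advance, so that these counts are no support for a rise. The same filter was applied to all probes.

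**Figure D4:**
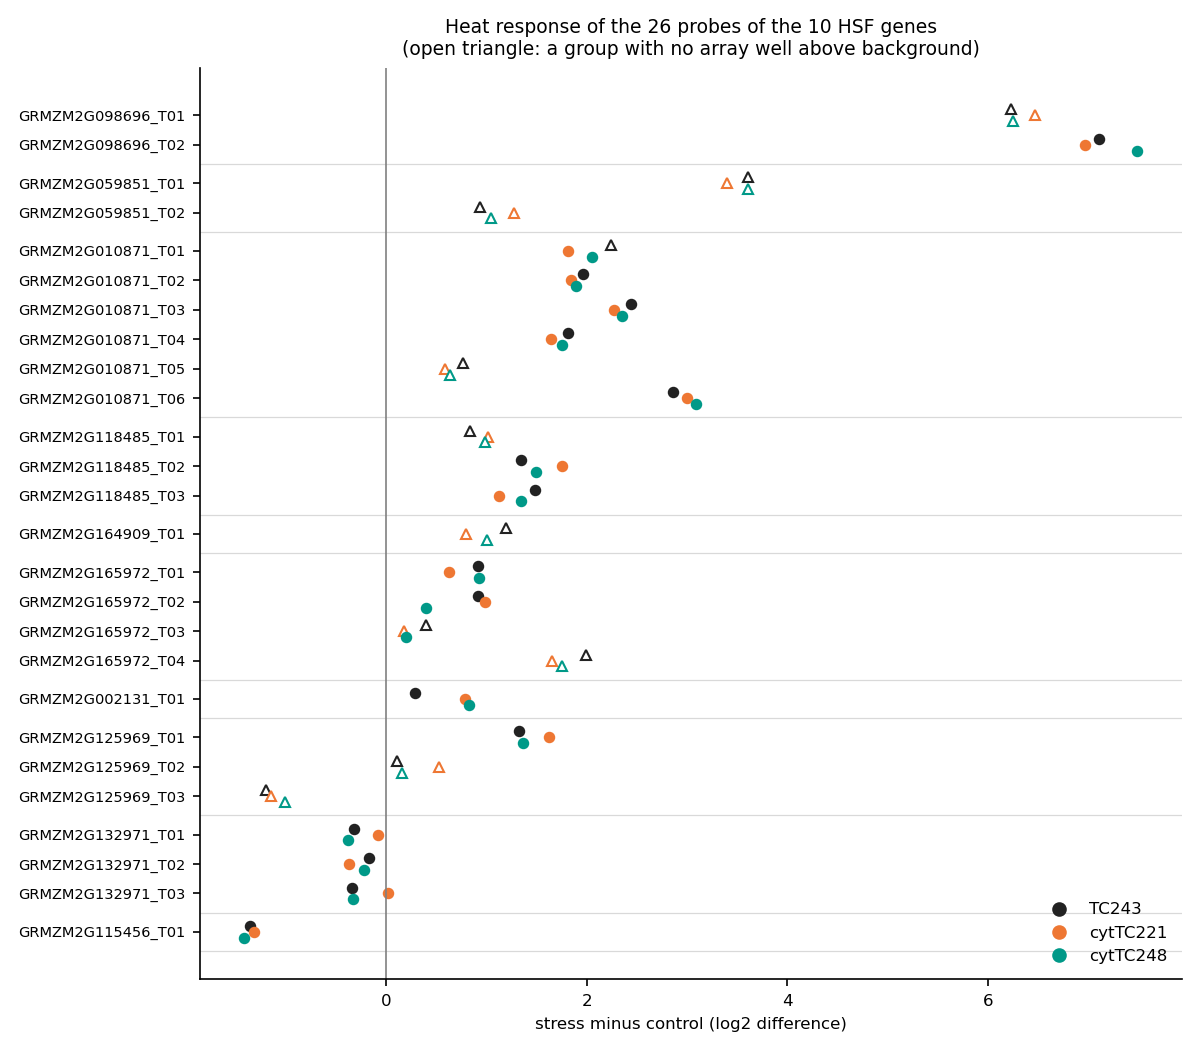
Heat response (stress minus control, log2 difference, x axis) of the 26 probes of the HSF genes in TC243 (black), cytTC221 (orange) and cytTC248 (teal), with probes grouped by gene. Open triangles mark values for which control or stress had no array well above background, so that the true change may be larger. The probes of GRMZM2G125969 lie on both sides of 0, from about -1.20 to 1.63, and those of GRMZM2G010871 all lie on the right.

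The question of the design was whether a shared nucleus answers heat differently in different cytoplasms. The heat response differed between cytolines for 2 of the 10 HSF genes by limma's F-test of the interaction, where 43.8% of all genes differed. The median range of the log2 response among the 3 cytolines was 0.18 over the HSF genes and 0.40 over all genes. GRMZM2G164909 responded less in cytTC221 than in TC243, with a log2 difference of -0.40 (95% confidence interval -0.54 to -0.26, adjusted p = 3.01e-05, and 0.000107 for the F-test). This pairwise contrast was passed by 2 of the 10 members and by 37.4% of all genes. No member passed that of cytTC248 with TC243 or that of cytTC221 with cytTC248, where 14.4% and 31.2% of all genes did. For GRMZM2G164909 the difference was -0.19 in the former (adjusted p = 0.0422) and -0.21 in the latter (adjusted p = 0.0125). Its F-test passed with each of the 24 arrays left out in turn. Its control values were at background in each cytoline, and its stress levels were 7.54 ± 0.06, 7.08 ± 0.04 and 7.27 ± 0.11 (SD, n = 4) on separately normalized scales.

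GRMZM2G125969 responded more in cytTC221 than in TC243, with a difference of 0.26 (95% confidence interval 0.12 to 0.40, adjusted p = 0.00294, and 0.00784 for the F-test). The F-test missed the threshold when any of 15 of the 24 arrays was left out, all 4 stress arrays of TC243 among them, and passed without control replicate 2 or 4 of TC243, control replicate 4 or stress replicate 2 of cytTC221, or control replicate 1, 2 or 3 or stress replicate 3 or 4 of cytTC248. At the T01 probe, measurable on all 24 arrays, this difference was 0.31 (adjusted p = 0.00331). The T02 probe was well above background in the cytTC221 stress group alone, and T03 in no stress group, so that no size is given for them. Both still enter the mean over probes behind the 0.26, its interval and its p-values. T02 was kept through the cytTC221 stress group alone.

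With the deposited values the other 8 genes gave no difference of the response past the threshold. This leaves room for differences of at least the size of their intervals. For GRMZM2G098696 the interval of the difference from TC243 was -0.14 to 0.24 in cytTC221 and 0.01 to 0.39 in cytTC248. For GRMZM2G059851 it was -0.10 to 0.24 and -0.11 to 0.22, and for GRMZM2G010871 -0.29 to -0.02 and -0.19 to 0.09. For GRMZM2G115456 it was -0.21 to 0.29 and -0.30 to 0.19. Only GRMZM2G002131 had an interval of the deposited values that reached past 1, with -0.09 to 1.09 in cytTC221 and -0.04 to 1.13 in cytTC248. The controls of GRMZM2G059851 and of the T01 probe of GRMZM2G098696 lay at background, so that the intervals of these genes do not bound the true difference. With the processed signal the response of GRMZM2G098696 was 9.90 in TC243, 9.92 in cytTC221 and 10.53 in cytTC248. The difference of GRMZM2G010871 between cytTC221 and TC243 was called with background correction and quantile normalization and with the processed signal, and its F-test with the latter, where that of GRMZM2G125969 was not. Single probes of 3 of the other 8 genes passed the same threshold. The share of all kept probes that did so is not given here. Of all genes 37.4% passed between cytTC221 and TC243 and 31.2% between cytTC221 and cytTC248. Between cytTC221 and TC243 the responses differed by -0.36 at the T03 probe of GRMZM2G118485 (adjusted p = 7e-04) and by -0.34 at the T04 probe of GRMZM2G165972 (adjusted p = 0.008), whose controls lay at background. The T01 and T02 probes of GRMZM2G118485 went the other way. The T02 means went from 8.68 to 10.03 in TC243 and from 8.80 to 10.55 in cytTC221. Those of T01, with controls at background, went from 6.46 to 7.30 and from 6.47 to 7.49. Between cytTC221 and cytTC248 they differed by -0.52 at the T02 probe of GRMZM2G098696 (adjusted p = 0.00778), for which 3 and 1 of the 4 control arrays were well above background.

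Without heat, none of the 10 HSF genes differed between the cytolines (limma F-test, lowest adjusted p = 0.201), where 20.9% of all genes did. Under stress 3 of the 10 differed by the F-test, against 51.5% of all genes. The stress level of GRMZM2G164909 relative to TC243 was -0.45 in cytTC221 (adjusted p = 2.68e-08) and -0.27 in cytTC248 (adjusted p = 0.00014), that of GRMZM2G165972 was -0.34 (adjusted p = 0.000149) and -0.29 (adjusted p = 0.00179), and that of GRMZM2G125969 was 0.23 (adjusted p = 0.000244) and 0.06 (adjusted p = 0.402). GRMZM2G164909 and GRMZM2G125969 also differed between cytTC221 and cytTC248, by -0.18 (adjusted p = 0.00273) and 0.17 (adjusted p = 0.0045), and GRMZM2G118485 between cytTC221 and TC243 by 0.15 (adjusted p = 0.00918). In these pairwise contrasts 48.3% (cytTC221 against TC243), 18.1% (cytTC248 against TC243) and 39.2% (cytTC221 against cytTC248) of all genes were called. The values of GRMZM2G125969 include the T02 probe, which was kept through the cytTC221 stress group alone. The values of the cytolines were normalized separately. With a single normalization of all 24 arrays, an alternative added after the values were seen, the F-test called these 3 genes and also GRMZM2G010871.

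Beside the members, genes of the HSF pathway were taken from the RefSeq table by name. Its 7 further HSF genes on the array, of which 6 were tested, moved both ways, with 3 higher and 3 lower in TC243, 2 higher and 1 lower in cytTC221, and 2 higher and 2 lower in cytTC248, beside 41.9%, 36.2% and 41.7% of all genes higher and 38.3%, 38.7% and 38.1% lower. The largest response among them was that of GRMZM2G003489 (Hsf26), with 2.21 in TC243, 1.00 in cytTC221 and 1.85 in cytTC248. The responses of 5 of these 6 genes differed between cytolines by the F-test, as did those of 43.8% of all genes. The RefSeq names recorded for GRMZM2G165998, which is among these 5 and was lower in TC243 and cytTC248, include no HSF name.

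The chaperone genes that HSFs are known to regulate rose, with 1 exception in TC243. All 6 small HSP genes were called higher in all 3 cytolines, as were 29.8% of all genes, with median log2 responses of 7.77, 7.42 and 7.87, and GRMZM2G149647, which carries the names hsp18 and hsp26, was highest with 9.54, 9.02 and 9.38. GRMZM2G360681 (hsp101), the gene of a disaggregase that dissolves protein aggregates, rose by 6.93, 6.44 and 6.81. All 3 HSP90 genes were called higher in each cytoline (29.8% of all genes were), led by GRMZM5G833699 (hsp82) with 6.22, 5.82 and 6.10. The 3 HSP70 genes were called higher in cytTC221 and cytTC248 and 2 of them in TC243, beside 36.2%, 41.7% and 41.9% of all genes, led by GRMZM2G310431 with 5.12, 5.31 and 5.03.

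Genes that act beside or on HSFs moved as follows. GRMZM2G101480 (MBF1.2), of a family of transcriptional co-activators, rose by 3.26, 2.75 and 2.91, while the other MBF1 gene was called in cytTC221 alone, where it was lower. GRMZM2G006745 (ZmDREB2A), whose Arabidopsis counterpart acts upstream of an HSF gene, rose by 3.48, 3.20 and 3.32. Both genes that carry the name hsbp1 in RefSeq, after the HSF-binding protein that limits HSF activity, were lower after heat in all 3 cytolines. Of all genes 31.4% were lower in all 3. GRMZM2G039155, also named emp2, changed by -0.40, -0.28 and -0.71. GRMZM2G085924, to which RefSeq also gives the name SBP1 and whose identity as an HSF-binding protein rests on that shared name, changed by -5.30, -4.59 and -5.79. Of the 5 leaf marker genes, 4, 3 and 3 were called lower after heat and 1, 2 and 1 higher. Of all genes 38.3%, 38.7% and 38.1% were called lower and 41.9%, 36.2% and 41.7% higher. The largest response among the markers was that of GRMZM2G083841 (PEP carboxylase), with -6.36, -6.74 and -6.28. GRMZM2G085019 (NADP-malic enzyme) rose by 1.40, 1.76 and 1.87. The part of a shift in cell types in the responses of the HSF genes was not tested.

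The genes whose profile over the 24 arrays lay closest to a member were sought for the 3 members with the largest responses, as the Euclidean distance between log2 values centred on each gene's mean. Closest to GRMZM2G098696 were GRMZM2G051135 at 0.79, the hsp101 gene GRMZM2G360681 at 0.94 and GRMZM2G312877 at 1.02. Closest to GRMZM2G059851 were GRMZM2G060868 at 0.41, GRMZM2G102985 at 0.42 and GRMZM2G062554 at 0.44, and closest to GRMZM2G010871 were GRMZM2G016926 at 0.44, GRMZM2G132936 at 0.46 and GRMZM2G070054 at 0.46. Members of the list were left out of this search. Within the list GRMZM2G165972 and GRMZM2G164909 were the nearest pair, at 0.52, and GRMZM2G098696 was farthest from any other member, at 10.9 from GRMZM2G059851. All these profiles share the step from control to stress.

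How the signal was processed changed the size of most rises but few directions. With the scanner's processed signal, which is background-subtracted, the log2 response of GRMZM2G098696 was 9.90, 9.92 and 10.53, that of GRMZM2G059851 5.60, 5.62 and 5.66, and that of GRMZM2G164909 4.93, 3.84 and 4.36. For GRMZM2G010871 it was 3.55, 3.04 and 3.35. GRMZM2G115456, measurable on all arrays, gave -1.37, -1.34 and -1.40, close to its deposited values. Processed signals below 1 were set to 1 before the log was taken. The mean of GRMZM2G125969 changed sign, to -0.38 in TC243 and -0.18 in cytTC248, while by probe T01 gave 1.56, 1.78 and 1.51 and T03 -4.24, -3.91 and -3.60.

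**Figure D5:**
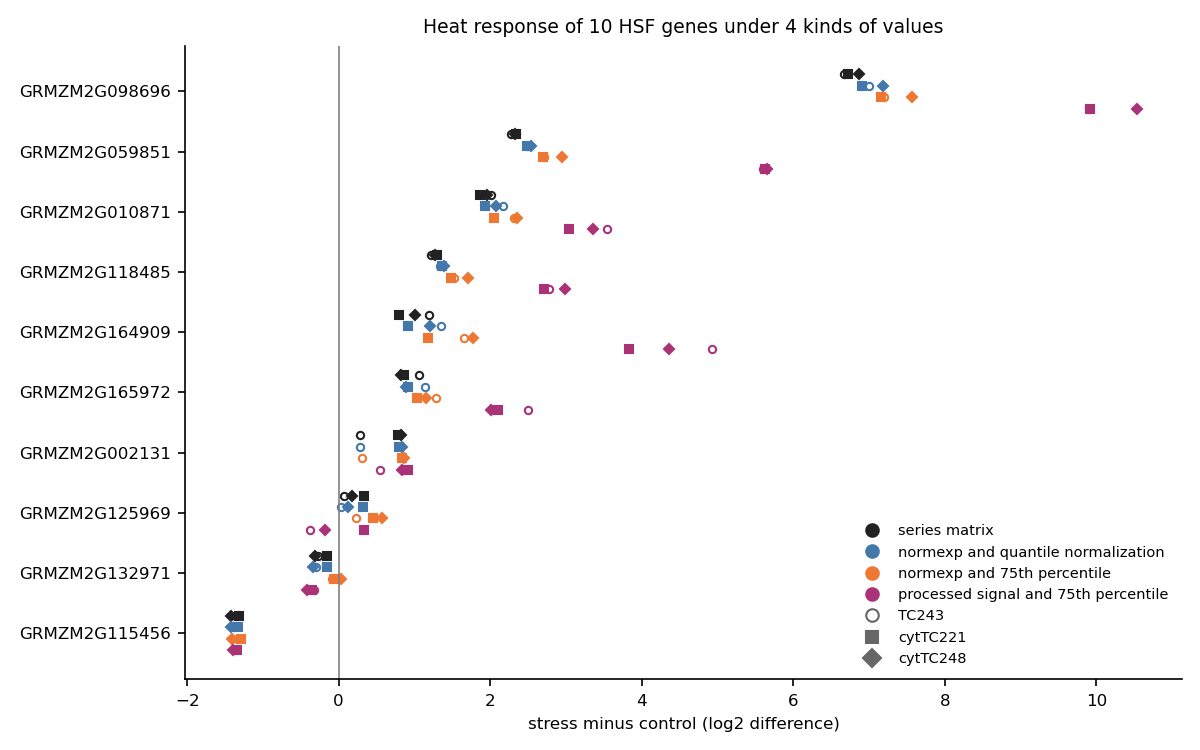
Heat response (stress minus control, log2 difference, x axis) of the 10 HSF genes from 4 kinds of values, with colours for the values and symbols for the cytolines. The deposited series matrix gave the smallest rise and the processed signal the largest for each of the 6 genes called higher in all 3 cytolines, while GRMZM2G115456 stayed between -1.43 and -1.29 under all 4.

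Control and stress arrays of a cytoline shared a slide in 2 pairs for each. Over these 6 pairs the difference of GRMZM2G098696 was 6.58 to 6.98, that of GRMZM2G059851 2.15 to 2.46, that of GRMZM2G010871 1.74 to 2.13 and that of GRMZM2G118485 1.15 to 1.38. It was 0.72 to 1.26 for GRMZM2G164909, 0.66 to 1.08 for GRMZM2G165972, and -1.64 to -1.12 for GRMZM2G115456. For these 7 genes each same-slide pair thus went the way of the pooled response. GRMZM2G132971 gave -0.51 to -0.10 in the 6 pairs. GRMZM2G002131 ranged from -0.24 to 1.24 and GRMZM2G125969 from -0.03 to 0.32.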

How the data were processed

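The files deposited by the authors were the scanner tables of the arrays (Agilent Feature Extraction 11.5.1.1), in which median and processed signals are intensities on a linear scale, and a series matrix of log2 values, which was matched to the spots by their number. The matrix differed by at most 0.06 from log2 median signals that were quantile-normalized within the 8 arrays of each cytoline without background subtraction. Spots of a probe were averaged, then the kept probes of each gene ID (64523 of 133671 probes were kept). Tests used limma 3.58.1 in R 4.3.3, with 1 fit of 6 group means and Benjamini-Hochberg adjustment over 48264 genes or 64523 probes, and the study's threshold of 0.01. On simulated arrays for the TC243 contrast (48216 genes), 94% of log2 changes of 1 and 100% of changes of 2 were recovered. Alternatives were normexp background correction (offset 50) with quantile normalization or scaling to the 75th percentile, the processed signal, a single normalization, other probe filters, slide or replicate blocks, and each array left out.

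The members and all gene lists were chosen with earlier results of these data known. Pathway genes were matched by name in the RefSeq table (Zm-B73-REFERENCE-NAM-5.0), which held 8 of the 10 members. Of each list the gene with the largest mean response was named, and GRMZM2G039155, GRMZM2G133023 and GRMZM2G085019 were named after their values were seen. A list of FKBP co-chaperones matched no gene. With 4 arrays in each group, the number of arrays limits the precision.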

Additional observations from a re-analysis of the deposited data

Results flagged for a closer look

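In GRMZM2G132971 the cytTC221 stress replicate 2 stood apart, at 7.27 where the other 3 arrays of its group lay between 7.64 and 7.71. Its T02 probe read 6.53 on that array and 7.65 to 7.69 on the others. In GRMZM2G164909 the cytTC221 control replicate 3 stood apart, at 6.32 against 6.28 to 6.29, all at background level. These are 2 of 60 groups of 4 arrays examined, and chance alone sets about 1 in 20 such groups apart.

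The heat response of GRMZM2G125969 differed between cytTC221 and TC243 by 0.26 on the log2 scale, and that of GRMZM2G164909 by -0.40, both in the test of the difference itself (limma, adjusted p = 0.00294 and 3.01e-05, 4 arrays per group). The value of GRMZM2G125969 is a mean that includes the T02 probe, which was kept through the cytTC221 stress group alone.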

How the results depend on the processing

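The counts of HSF genes called higher were 8 in cytTC221 and in cytTC248. They were 5 in each when only probes well above background on all 24 arrays were used, which left 27876 genes to test. GRMZM2G059851, GRMZM2G164909 and GRMZM2G098696 had no such probe and were not tested there. The processed signal gave 7 in cytTC221 and in cytTC248 and 7 in TC243 in place of 6, and normexp with quantile normalization 7 in cytTC248. The count called lower in TC243 was 2, and it was 1 with normexp and the 75th percentile, with the processed signal, with the brightest probe of each gene, with slide as a fixed block and with the joined older gene ID, and 1 to 2 when an array was left out. The count called lower in cytTC248 was 2, and it was 1 with the first 3 of these settings and with the joined ID. Of single probes called lower, 4 in TC243 and 4 in cytTC248, 2 each were left with normexp and the 75th percentile. Genes that differed between cytolines under stress were 3, and 5 with the brightest probe.

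Genes whose response differed between cytolines were 2, and 1 with normexp and the 75th percentile, 1 with slide as a fixed block, 1 with the replicate block, where GRMZM2G125969 was lost and GRMZM2G164909 was called, and 1 to 2 when an array was left out. The processed signal gave 2, with GRMZM2G010871 in place of GRMZM2G125969. Probes on all 24 arrays gave GRMZM2G125969 and GRMZM2G132971, with GRMZM2G164909 not tested for want of such a probe. The joined ID gave 3. Between cytTC221 and TC243 they were 2, 1 with normexp and the 75th percentile, and 3 with normexp and quantile normalization or the processed signal (both adding GRMZM2G010871) or the joined ID. Between cytTC221 and cytTC248 they were 0, and 3 with normexp and the 75th percentile, 1 with each of normexp and quantile normalization, a single normalization, arrays centred on the median gene, probes on all 24 arrays, the brightest probe and slide as a fixed block, and 0 to 1 when an array was left out (GRMZM2G164909 without cytTC248 stress replicate 2). Between cytTC248 and TC243 leaving out an array gave 0 to 1 (GRMZM2G164909 without cytTC248 stress replicate 4).

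The sign of GRMZM2G125969 turned with the processed signal, to -0.38 in TC243 and -0.18 in cytTC248, and with centred arrays, to -0.025 in TC243. That of GRMZM2G132971 turned to 0.028 in cytTC248 with normexp and the 75th percentile, and to 2.01, 1.74 and 1.84 with the joined ID. For GRMZM2G002131 in TC243 the processed signal gave 0.55 (adjusted p = 0.00734). The causes of these changes were not tested. Replicate numbers did not pair the arrays, as the residuals of same-numbered arrays correlated between -0.18 and 0.27, with 1 to 3 of 15 pairs of each number over 0.1. Signals near background limit the size of every rise that starts there.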
